A study of Mus musculus with 42 samples.

Results

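Among the uterine cells of the single-cell experiment, 82 stood out by their globin content. They were chosen by measured values: the UMIs (unique molecular identifiers, which count captured mRNA molecules) of Hbb-bt, Hbb-bs, Hba-a1 and Hba-a2, the adult beta and alpha chains of mouse haemoglobin, made at least 30% of all UMIs of the cell, and mitochondrial transcripts made under 10%. They were 0.627% of the 13084 cells under the mitochondrial limit (exact 95% binomial interval 0.499 to 0.777%, which covers counting error only) and came from 15175 cells in all. The cells had been sorted as live CD45+NK1.1+NKp46+ lymphocytes from the uterus of wild-type C57BL/6 mice, virgin or at gestational day (gd) 8.5, and captured on the BD Rhapsody system. The 2 deposited files held the same 15175 cell numbers and shared no gene, and they carried no tag for the mouse or stage. The preparation was therefore treated as 1 pooled sample, no test between cells was made, and virgin and gd8.5 cells cannot be told apart. In the same series, trNK (tissue-resident NK) cells sorted as CD45+NK1.1+NKp46+CD49a+CXCR6- were sequenced in bulk from C57BL/6 mice of wild type, with 2 libraries each for virgin, gd6.5 and gd8.5, and 2 for each of 3 gd8.5 subsets sorted by CD55 and 4-1BB: trNK-V (low, labelled CB_low), trNK-D (intermediate, CB_int) and trNK-T (high, CB_hi). Cultured trNK cells were also sequenced in bulk, as controls, with IL-21, or with IL-21 and the STAT3 inhibitor Stattic. A time course held libraries with and without IL-21 at 0, 6, 24 and 72 h. Each culture condition had 2 libraries. The paper states that trNK-V cells of gd6.5 mice were cultured, and its medium held IL-15.

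Red cells arise in the bone marrow, spleen and fetal liver from erythroblasts that divide, make haemoglobin and shed their nucleus, often around a central macrophage. The reticulocyte that remains no longer transcribes. It keeps globin mRNA and a small set of late messages while it clears mitochondria and ribosomes. The mouse beta and alpha clusters also hold embryonic chains, such as Hbb-y, Hbb-bh1 and Hba-x, which primitive red cells of the yolk sac use before the adult chains take over.

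Most of the globin-high cells also held Alas2 and Slc4a1, erythroid markers that the choice did not use. Part of the cells held NK or macrophage messages as well, as given below. Alas2, the erythroid enzyme of the first step of heme synthesis, had UMIs in 82 of 82 globin-high cells, with a lowest value of 3, a median of 12 and a highest of 37. Of the 13002 other cells under the mitochondrial limit, 68 held an Alas2 UMI. Slc4a1, the band 3 anion exchanger of the red cell membrane, was counted in 62 of the 82 cells and in 33 other cells. When each cell was thinned to 200 non-globin UMIs, which left no cell out, Alas2 was still found in 77 globin-high cells (93.9%) and in 8 other cells (0.0615%). Slc4a1 was then found in 34 globin-high cells (41.5%) and in 3 other cells (0.0231%).

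The stretches of 120 bases just before the RefSeq start of 3 globin genes and of Alas2 are shown because these genes were high in the same cells. Coordinates are of GRCm38.p6 and the sequences run 5′ to 3′ on the strand of the gene. Hbb-bt lies at chr7:103813924-103814043 (minus strand), Hbb-bs at chr7:103827929-103828048 (minus), Hba-a1 at chr11:32283552-32283671 (plus) and Alas2 at chrX:150547297-150547416 (plus). Capitals mark 4 motifs searched on both strands, where matches may touch or overlap. The letters CACCC are bound by Kruppel-like factors in known globin promoters. The letters CCAAT are a common promoter element near the start site of many genes. The letters GATAA are the core bound by Gata1 and its relatives. The letters TATAA are the core of the element that positions the start of transcription.
Hbb-bt: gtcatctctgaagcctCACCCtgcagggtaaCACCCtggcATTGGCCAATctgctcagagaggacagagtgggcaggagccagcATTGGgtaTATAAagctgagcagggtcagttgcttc
Hbb-bs: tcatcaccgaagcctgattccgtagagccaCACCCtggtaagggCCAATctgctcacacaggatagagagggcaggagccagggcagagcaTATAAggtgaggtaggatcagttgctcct
Hba-a1: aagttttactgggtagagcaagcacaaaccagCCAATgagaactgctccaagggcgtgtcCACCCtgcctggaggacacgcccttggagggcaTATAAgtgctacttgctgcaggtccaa
Alas2: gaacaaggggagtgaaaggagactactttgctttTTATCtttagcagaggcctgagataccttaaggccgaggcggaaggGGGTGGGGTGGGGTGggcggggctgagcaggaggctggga
All 4 stretches held CACCC, a match that 31.7% of the 32851 RefSeq promoters of the same length also held. CCAAT and TATAA stood in the 3 globin stretches, against 21.3% and 11.8% of promoters, and GATAA only in that of Alas2, against 10.5%. These matches are letters and were not tested as binding sites.

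The 82 cells held 189479 UMIs, of which 106015 (56.0%) were of the 4 globin genes, and together they carried 81.8% of all globin UMIs of the cells under the mitochondrial limit. The globin share of a cell ran from 30.01% over a median of 63.9% to 83.3%, and no cell reached 90%. Globin UMIs per cell ran from 652 over 1232 to 3205, and total UMIs from 1258 over 1911.5 to 5702, against a median of 4362.5 in the other cells. In the other cells globin was near background, with 0 globin UMIs in 80.2% of them and under 5 in 99.5%. The limit did not fall in a gap of the distribution, with 15 cells at 10 to 30% globin and 19 at 30 to 50%. Just inside it, cells stood at 30.01, 30.6 and 31.3%. Just outside, they stood at 29.2, 29.1 and 25.5%, and 30 other cells in all held 1% or more.

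Hba-a1 gave 47.5% of all globin UMIs, Hbb-bs 36.8%, Hbb-bt 15.3% and Hba-a2 0.357%. Alpha chains made 47.9% of the globin UMIs of the 82 cells and between 39.8 and 62.5% in single cells. The share of Hba-a2 is uncertain, since its transcript differs from that of Hba-a1 at 17 of 554 aligned bases (96.9% identity), and a counting method can move reads between them. Hbb-bs and Hbb-bt were 92.5% identical over 628 bases.

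Embryonic globins were close to absent. Hbb-y, the embryonic epsilon-type beta chain, had 0 UMIs, which allows a share of up to 0.00283% of the 106015 adult globin UMIs (3 counts). Hbb-bh1 had 8 UMIs, Hbb-bh2 2 and Hba-x 2, never over 1 in a cell. Hbq1b, a theta-type globin listed with them, had 26 UMIs in 22 cells, against 2 in all other cells. The 5 listed genes together made 0.0358% of adult and embryonic globin UMIs (0.0254 to 0.0492%), and Hbq1a was not analysed here.

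Beside globin, the cells held few messages. The median cell had 673.5 non-globin UMIs (277 to 3580) and 395.5 genes (168 to 1514), against 4359.5 non-globin UMIs and 1825 genes in the other cells. A level below is the number of UMIs per 1000000 non-globin UMIs, summed over cells, from 83464 UMIs in globin-high cells and 81398933 in other cells, with exact Poisson intervals in counting error only. Among 33363 genes detected, 0.552% were at least 10-fold higher with at least 10 UMIs in the globin-high cells, whereas 38 of the 54 matched genes of 4 erythroid lists were. Of the 1439 genes that reached 10 UMIs in these cells, 12.8% were past this fold, and 41 of the 54 list genes reached 10 UMIs. These genes gave 10.8% of non-globin UMIs (10.6 to 11.0%) against 0.244% in other cells. The median ratio was 128 over the 54 genes, 1.17 over the 1439 genes and 0 over all genes detected, most of which had no UMI in the 82 cells. Since the same cells were chosen for globin, these ratios describe the cells and test nothing.

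Of 11 heme genes, 7 passed this 10-fold rule, with a median ratio of 11.3. Alas2 stood at a level of 12664 (11912 to 13451) against 2.59 in other cells, a ratio of 4886. Fech, the ferrochelatase that inserts iron, stood at 4781 against 16.3, and Slc25a37, the mitochondrial iron importer mitoferrin 1, at 3870 against 29.2. The middle enzymes named here had fewer UMIs: Cpox had 78 (in 11 cells), Urod 25, Uros 19, Ppox 5 and Alad 4. Of these, Urod and Uros passed the rule, with ratios of 11.3 and 12.6. Alad was no higher than in other cells, at 47.9 against 57.8.

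The membrane skeleton list was the most distinct, with 14 of 16 genes past the rule and a median ratio of 1139. Slc4a1 reached a level of 3834 against 1.15. Epb41, protein 4.1, reached 4409 against 45.9. Rhag, the Rh-associated glycoprotein, had 44 UMIs in only 10 cells. Gypc and Icam4 had 7 and 5 UMIs.

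Of 21 matched maturation genes, 15 passed, with a median ratio of 48.1. Ube2l6, a ubiquitin and ISG15 conjugating enzyme, and Mkrn1, a ubiquitin ligase, had UMIs in all 82 cells and stood at levels of 10388 and 9285. Bpgm, which makes the 2,3-bisphosphoglycerate that tunes oxygen release, stood at 8135 against 11.97, and Tent5c, a poly(A) polymerase, at 7117 against 13.3. Bnip3l, the mitophagy receptor Nix, stood at 3079 against 64.0. Gpx1 stood at 9741 but is also made by other cells (393). Car2, a carbonic anhydrase, stood at 6674 against 986 and missed the 10-fold rule. Car1 had 0 UMIs in any cell of either group, and Ahsp was not analysed here.

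Transcription factors had few UMIs. Lmo2 had 34 UMIs and Nfe2 13, and both passed. Gata1, the master factor of the lineage, had 9 UMIs in 3 cells, Tal1 6 in 3 and Gfi1b 0. Klf1 was not analysed here. None of 9 progenitor and cell cycle genes passed: Mki67 had 54 UMIs in 11 cells, and Kit, Myb and Epor had 1, 1 and 2. A count of 0 allows a level of up to 35.9 in these cells.

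**Figure D1:**
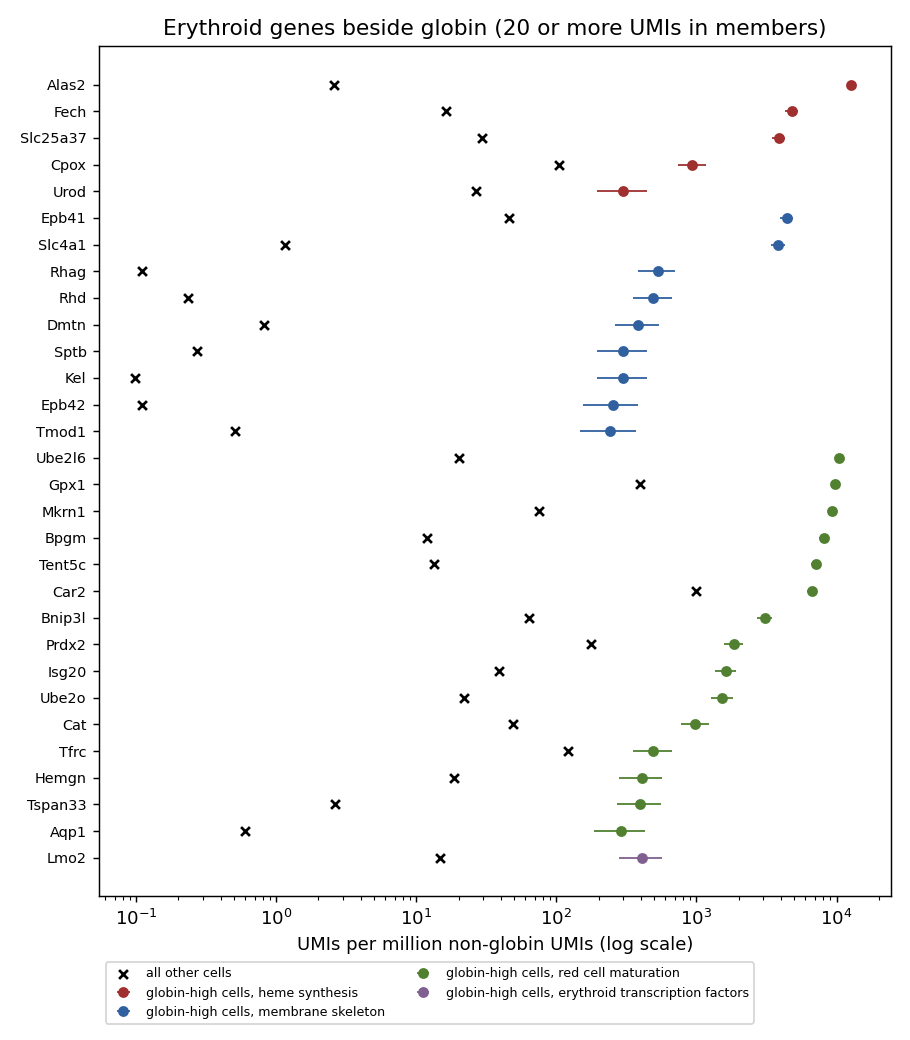
Levels of 30 listed erythroid genes with at least 20 UMIs in globin-high cells, as UMIs per 1000000 non-globin UMIs on a log axis. Circles are the 82 globin-high cells with exact 95% Poisson intervals and crosses the 13002 other cells. Every circle lies to the right of its cross, closest for Tfrc (491 against 120) and Car2 (6674 against 986).

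Outside the lists, the 20 highest levels included Pabpc1, the poly(A)-binding protein, at a level of 16342 against 2361, Ucp2, a mitochondrial carrier, at 7356 against 1196, and Cd24a, a surface glycoprotein of erythroblasts and B-cell precursors, at 5188 against 10.3. Rsad2, known as the interferon-induced antiviral protein viperin, stood at 9070 against 21.9 and had UMIs in 79 cells. The general messages Actb (actin) and Tmsb4x (thymosin beta 4) stood at 10987 and 10711, which was 0.563 and 0.429 of the level in other cells. Ribosomal protein genes made 6.19% of non-globin UMIs against 14.6%.

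Large ratios among genes with at least 20 UMIs in at least 5 cells were those of Apol11b (90 UMIs in 17 cells against 6 in all others), Hbq1b, the alpha-globin pseudogene Hba-ps3, Alas2 and Rhag. Trim10, a ligase of late erythroid differentiation, had 89 UMIs against 19 and Tspo2, an erythroid member of the translocator family, 58 against 14. The pseudogenes Hba-ps3 and Hba-ps4 (42 and 28 UMIs) may share reads with the alpha genes. The smallest ratios were those of Ifitm1 (0.129), the granzymes Gzme (0.130), Gzmc (0.133), Gzmg (0.151), Gzmf (0.154) and Gzmd (0.156), Spp1 (0.135), Plac8 (0.140), Mt2 (0.202) and Npm1 (0.203).

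The 82 cells were not alike. The erythroid share of their other messages was larger in each higher band of globin share, the NK share was largest in the lowest band, and the macrophage share was smallest in the highest band. In the 28 cells at 70 to 90% globin, which had a median of 374.5 non-globin UMIs, erythroid list genes made 21.3% of the summed non-globin UMIs, the NK list 0.606% and the macrophage list 0.0373%. In the 35 cells at 50 to 70%, the shares were 13.6%, 0.644% and 0.740%, and the NK interval overlapped that of the highest band (0.558 to 0.739% against 0.468 to 0.771%). In the 19 cells at 30 to 50%, which had a median of 2261 non-globin UMIs, they were 5.92%, 1.59% and 0.576%. The 12972 cells under 1% globin stood at 0.242%, 2.02% and 0.0771%. The alpha share of globin hardly moved, at 46.5, 48.0 and 48.6% from the lowest to the highest band. Alas2 UMIs kept pace with globin, at 10.1, 10.0 and 9.78 per 1000 globin UMIs.

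**Figure D2:**
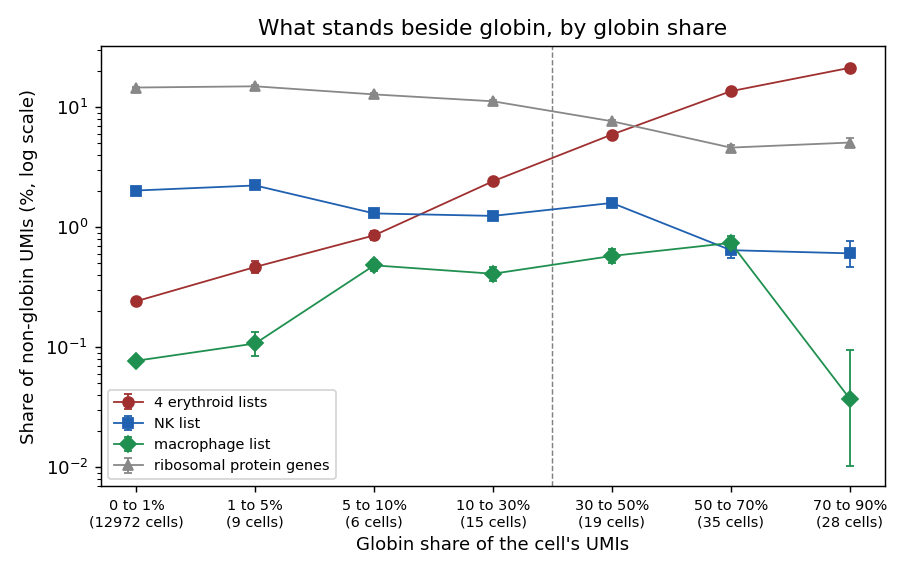
Share of non-globin UMIs from the erythroid, NK and macrophage lists and from ribosomal protein genes, on a log axis, in bands of the cell's globin share, with exact 95% binomial intervals. The dashed line is the 30% limit. The erythroid share rises from 0.242% to 21.3%, while the macrophage share is highest at 50 to 70% (0.740%) and drops to 0.0373% above.

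To describe this spread, sets were drawn after the values had been seen: 10 cells with a Rhag UMI, 17 with at least 10 UMIs of the NK list and 23 with at least 5 of the macrophage list. Of the last 2 sets, 8 cells were in both, and 2 of the Rhag cells were in the macrophage set. The other 42 cells were in none. These 42 had a median globin share of 74.98% (57.3 to 83.3%), with 413 non-globin UMIs and 234 genes in the median cell. The limits are numbers of UMIs, which cells with more non-globin UMIs reach more easily, so a low non-globin count and a high globin share in the 42 cells follow in part from how they were chosen. Because the sets were chosen by these genes, differences in the same genes are no finding.

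**Figure D3:**
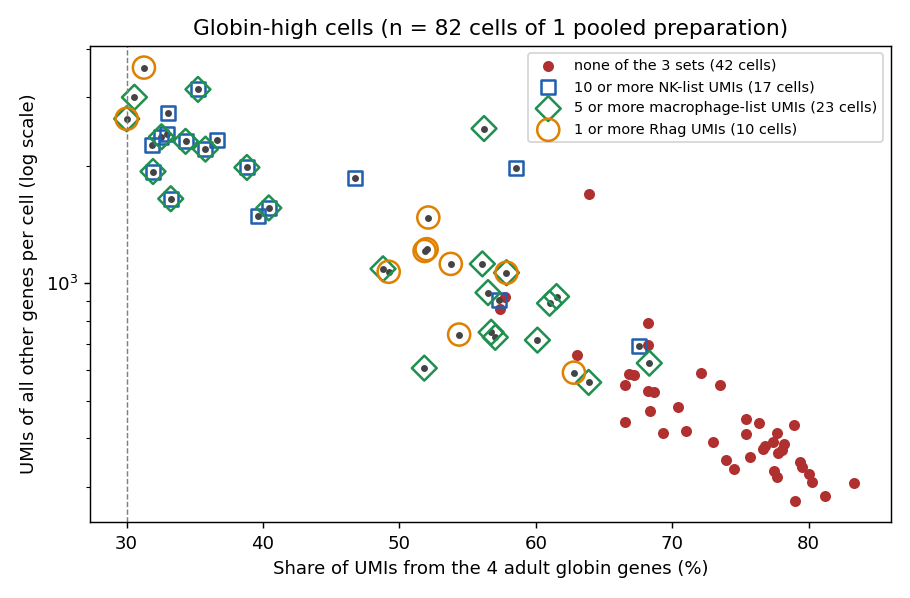
Globin share (%) against the UMIs of all other genes (log axis) for each of the 82 cells, with 1 symbol for each set and nested symbols where a cell is in more than 1. The 42 filled cells in no set lie at 57.3 to 83.3% globin, and 14 of the 17 NK-set cells lie below 50%.

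In the 42 cells in no set, some late messages made a larger part of the non-globin UMIs than in the other sets. Alas2 stood at a level of 27297, Ube2l6 at 21965, Mkrn1 at 20252, Bpgm at 18491 and Tent5c at 15801. Not all maturation genes went this way: Car2 stood at 8267, against 19493 in the Rhag cells. Per cell, Alas2 had 13.3 UMIs in the 42 cells, 15.4 in the Rhag cells and 13.0 in the macrophage set. The 4 erythroid lists made 19.5% of their non-globin UMIs. Tfrc, the transferrin receptor, and Mki67 had 2 UMIs each in these 42 cells, and Cpox, coproporphyrinogen oxidase, 0. Ribosomal protein messages made 4.61%.

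The 10 Rhag cells carried a different erythroid set. They held 17.6% of all non-globin UMIs of the 82 cells but 72 of 78 Cpox UMIs, 39 of 41 of Tfrc, 38 of 41 of Rhd, 32 of 34 of Hemgn, 19 of 19 of Ermap, and all 9 of Gata1 and 6 of Tal1. Mki67, the proliferation marker, had 50 of its 54 UMIs there. Other cell cycle genes of the lists had fewer UMIs: Top2a had 11 of 17 there, Cdk1 1 of 5 and Ccnb1 2 of 2. Rrm2 had 3 UMIs in the 82 cells. The Rhag cells had a median globin share of 52.1% and 1166.5 non-globin UMIs, against 413 in the 42 cells, so levels are given too. Tfrc stood at a level of 2649 against 97.8 in the 42 cells, a ratio of 27.1 (7.01 to 231). Slc4a1 was also higher, at 10732 against 4549. The reverse held for Bpgm (3939 against 18491, a ratio of 0.213, 0.159 to 0.282), Epb41 (0.258), Bnip3l (0.284), Tent5c (0.331), Mkrn1 (0.339) and Alas2 (0.383). This order depends on the scale, since the 42 cells hold fewer non-globin UMIs. Per cell, the Rhag cells had 5.8 Bpgm UMIs against 9 in the 42 cells, but 15.4 of Alas2 against 13.3, 10.1 of Mkrn1 against 9.86 and 7.7 of Tent5c against 7.69. Counts were uneven within the 10 cells: 1 cell held 50 of the Cpox UMIs and 1 held 24 of Mki67. The largest count in 1 cell was 17 for Tfrc, 16 for Hemgn, 13 for Rhd, 8 for Ermap, 7 for Gata1 and 4 for Tal1. Of the 10 cells, 8 held a UMI of Tfrc, 7 of Rhd, 7 of Cpox, 7 of Mki67 and 5 of Hemgn. The intervals of the ratios cover counting error only and leave out this spread.

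The macrophage set held 459 of the 474 macrophage-list UMIs, between 5 and 101 a cell, at a globin share of 30.01 to 68.3%. Erythroid genes stayed with them, with Alas2 at a level of 8459 and Bpgm at 4895. Their macrophage genes stood in other proportions than in other cells. Vcam1, the adhesion molecule that holds erythroblasts to island macrophages, had 66 UMIs to 67 of the complement gene C1qb, a ratio of 0.985 (0.690 to 1.41). Over all 82 cells, without the choice of a set, the ratio was 0.957 (0.674 to 1.36) against 0.0238 in the other 13002 cells. For Slc40a1, the iron exporter ferroportin, it was 1.04 against 0.0211, and for Hmox1, heme oxygenase 1, 1.79 against 0.111. A single cell held 25 of the 67 Vcam1 UMIs. In 1152 cells with at least 10 C1q UMIs and under 1% globin, Vcam1 stood at 0.0120 to C1qb, but those cells were chosen for C1q, which lowers such a ratio. Fcna (44 UMIs), Cd163, the haemoglobin scavenger receptor (10), and Timd4 (9), which were looked up after the values had been seen, stood at levels of 1245, 283 and 255 against 18.8, 6.00 and 5.44 in the C1q cells.

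The NK set held 770 of the 929 NK-list UMIs, between 10 and 117 a cell, with a median globin share of 35.8% and 1984 non-globin UMIs. Alas2 was found in all 17. Gzma, a granzyme found in 11 of the 17 cells, stood at a level of 6707 and the chemokine Ccl5 at 4757, against 2521 and 1054 in the 6536 other cells with at least 3 UMIs of Ncr1, Klrb1c, Klre1 and Klrk1, no C1q UMI and under 1% globin. Gzmb (3457 against 8618), Gzmc (620 against 6084) and Gzmd (827 against 9642) were lower. Gzma, Ccl5, Gzmb and Gzmc are genes of the NK list by which the set was chosen. The 6536 cells were chosen by other genes of that list. Higher Gzma and Ccl5 in the set thus follow in part from the choice. The ratio of Gzma to Gzmb was 1.94 (1.55 to 2.45) against 0.292, and that of Gzmc to Gzmb 0.179 (0.107 to 0.287) against 0.706. Over all 82 cells Gzma stood at 1.35 to Gzmb (1.11 to 1.64), against 0.288 in all other cells. Some of the genes looked up after the values had been seen are given here. The transcription factor Klf2 stood at 443 (248 to 731) against 47.0 and the integrin Itgam at 266 (122 to 505) against 43.5. The mast cell protease gene Cma1 stood at 177 (65.1 to 386) against 17.8, from 6 UMIs in 3 cells. Ctla2a was lower, at 266 (122 to 505) against 603. Cd69 stood at 207 (83.1 to 426) against 151, and Itga1 of the NK list, which encodes CD49a, at 118 (32.2 to 303) against 294, where the intervals take in the second value. The same held for Cd7, at 532 (315 to 840) against 392, and Cxcr6, at 59.1 (7.16 to 213) against 11.7. Cd7 had 18 UMIs in 4 cells and Cxcr6 2 UMIs in 1 cell. These intervals cover counting error only, leave out the spread between cells, and are no test.

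**Figure D4:**
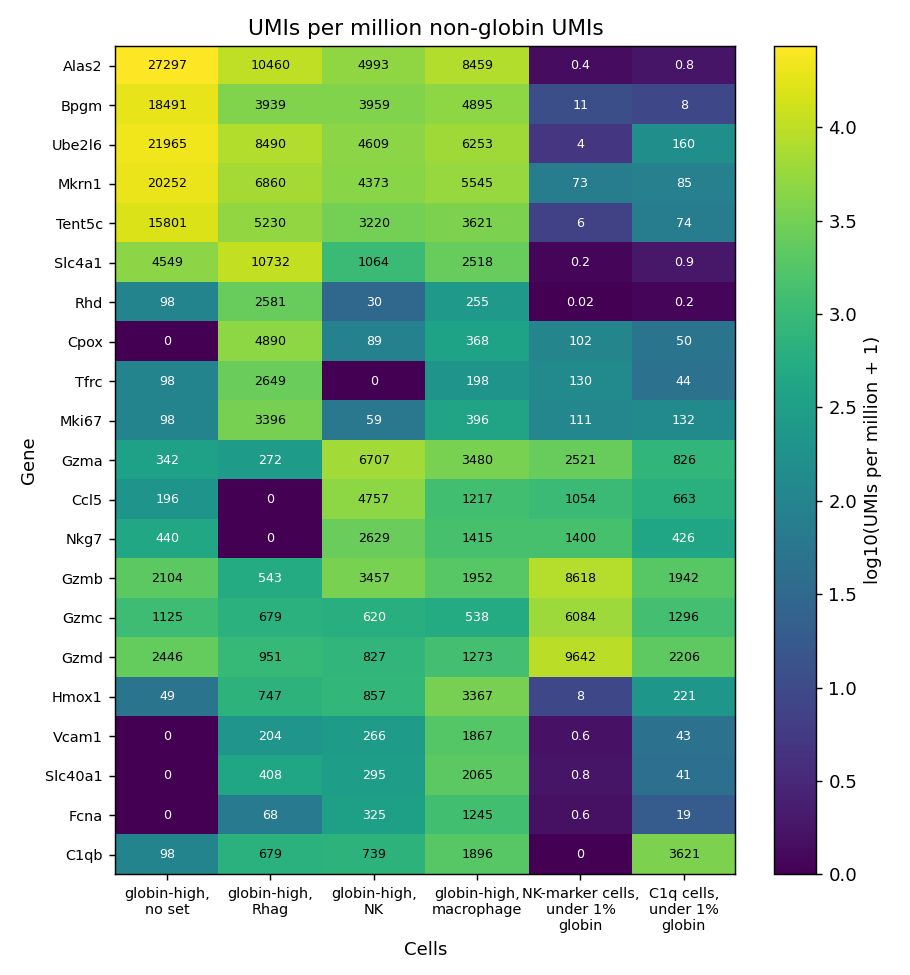
Levels of 21 genes, as UMIs per 1000000 non-globin UMIs (printed, with colour on a log10 scale after adding 1), in the 4 sets of globin-high cells and in NK-marker and C1q cells under 1% globin. Alas2 (27297), Bpgm, Ube2l6, Mkrn1 and Tent5c are highest in the cells of no set, Cpox and Tfrc in the Rhag cells, Gzma and Ccl5 in the NK set, and Vcam1 and Slc40a1 in the macrophage set. Gzma, Ccl5, Vcam1 and Slc40a1 are genes of the lists by which those sets were chosen.

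The genes of the sorting gate were found in few of the most globin-rich cells. A UMI of Ptprc (CD45), Klrb1c (NK1.1) or Ncr1 (NKp46) was present in 37 of the 82 cells. It was present in 8 of the 42 cells in no set and in 3 of the 10 Rhag cells. In the macrophage set it was present in 18 of 23 cells and in the NK set in 16 of 17. The share was 92.2% in other cells, unthinned, at a median of 4359.5 non-globin UMIs against 413 in the 42 cells. Klrb1c and Ncr1 are also genes of the NK list. The counts in the NK set and in the 42 cells thus follow in part from how the sets were drawn. Granzyme transcripts were wider spread. Gzmd and Gzmf had 119 and 117 UMIs in 57 and 54 of the 82 cells, a ratio of 1.02 (0.781 to 1.32) against 1.01 in other cells. After thinning to 200 non-globin UMIs, Gzmd was found in 38.1% of the 42 cells in no set, 13.8% of the C1q cells and 39.7% of the NK-marker cells, whereas Nkg7 was found in 2.38%, 5.30% and 31.0%. Unthinned, Gzmd had 1.19 UMIs per cell in the 42 cells, 10.2 in C1q cells and 65.2 in NK-marker cells. Whether free RNA gave these UMIs was not tested.

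Few UMIs of other lineages were found, and in part few would be found at the shares in other cells. The T, platelet and trophoblast lists had 0 UMIs in the 82 cells (0.00630%, 0.00322% and 1.72e-05% of non-globin UMIs in other cells), the neutrophil list 1 (0 of its other 5 genes detected), the endothelial list 7, the stromal list 11 and the B list 19, which was 0.0228% (0.0137 to 0.0355%) against 0.0329% in other cells. Doublet calling was not run and no cell was removed. Without the NK and macrophage sets, 50 cells remained, with 18.9% of non-globin UMIs from the erythroid lists in place of 10.8% and 0.404% from the NK list in place of 1.11%. That limit was chosen after seeing the data.

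In the bulk trNK libraries, adult globin was a matter of single libraries. The 4 genes had 10752 counts (655 counts per 1000000, CPM) in gd8.5 replicate 2, but 3 counts in gd8.5 replicate 1. They had 3093 counts (170 CPM) in the library labelled virgin replicate 2, 223 (9.72 CPM) in virgin replicate 1 and 0 in both gd6.5 libraries. In the 6 subset libraries they stood between 0 and 14 counts. The 34 bulk libraries held 11861343 to 66462748 counts each, and 3 of them were above 5 CPM of adult globin. Fewer erythroid cells and less RNA per cell cannot be told apart in such libraries. Virgin and gd8.5 libraries overlapped, whereas both virgin and both gd8.5 libraries lay above the 2 gd6.5 libraries, gd8.5 replicate 1 by only 3 counts.

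The 2 globin-rich libraries differed in kind. In gd8.5 replicate 2, Hba-a1 had 6573 counts, Hbb-bs 2528, Hbb-bt 944 and Hba-a2 707. Alas2 had 182 counts and Hbq1b 5, and Hbb-y, Hbb-bh1 and Hba-x had 0. In virgin replicate 2, Hbb-bs had 1320 counts, Hba-a1 1214, Hba-a2 487 and Hbb-bt 72 and Alas2 45, and the embryonic chains were present, with 98 counts each for Hbb-y and Hba-x and 34 for Hbb-bh1. The embryonic globin list made 6.92% of globin counts in that library and 0.0465% in gd8.5 replicate 2, although the latter had more adult globin. In gd8.5 replicate 2 that share was of the 5 Hbq1b counts alone. The transcripts of Hbb-y and Hbb-bs were 69.7% identical. Hbb-bt made 27.2% of beta counts in gd8.5 replicate 2 and 5.17% in virgin replicate 2, and in the single cells between 28.2 and 30.3% over the 3 bands. Slc4a1 and Rhag had at most 2 counts in any of the 12 libraries. Alas2 did not follow globin across libraries: it had 46 counts in trNK-V replicate 2, beside 14 of adult globin, and 13 and 14 in the gd6.5 libraries, beside 0. The Y-linked list had 2 counts in virgin replicate 2 and 1 in gd8.5 replicate 2. The source of embryonic globin in a library labelled virgin was not tested.

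**Figure D5:**
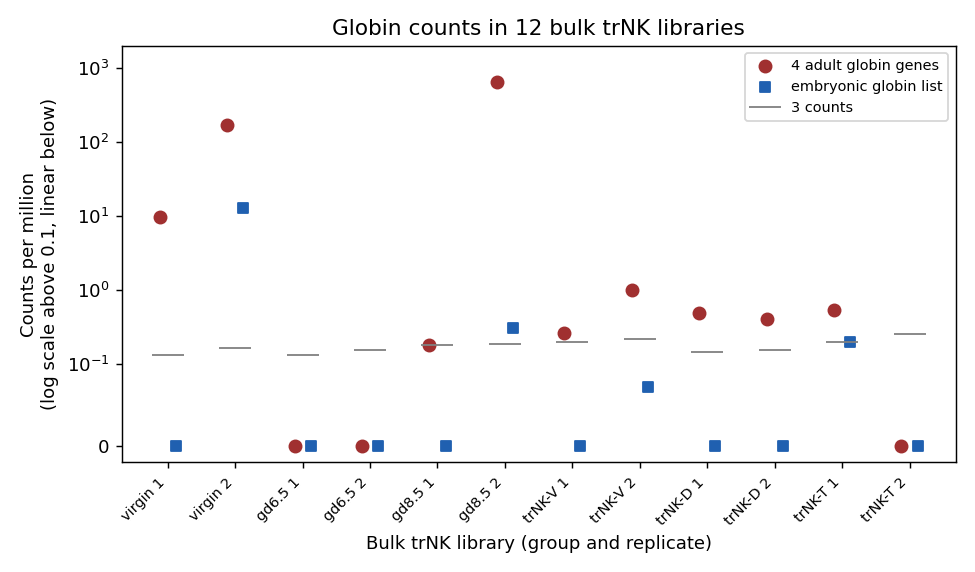
CPM of the 4 adult globin genes (circles) and the embryonic globin list (squares) in the 12 bulk trNK libraries, on a scale that is logarithmic above 0.1 and linear below, with the level of 3 counts as a bar. Adult globin reaches 655 in gd8.5 replicate 2 and 170 in virgin replicate 2. The embryonic list reaches 12.6 in the latter, against at most 0.304 in the other 11 libraries (gd8.5 replicate 2, from 5 counts of Hbq1b).

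With edgeR's quasi-likelihood test and Benjamini-Hochberg adjustment over all tested genes, no tested gene of 6 lists (adult and embryonic globins, heme, membrane, factors and maturation) was called between stages, where a call needed an adjusted p under 0.05 with more than a 2-fold change. For gd6.5 against virgin, 6.17% of 4504 genes were called and 0 of 14 list genes. The 278 calls became 907 without virgin replicate 2 and 0 without either gd6.5 library. For gd8.5 against virgin 0.422% and 0 of 14 were called, and for gd8.5 against gd6.5 0% and 0 of 14, where calls over all genes were 221 with DESeq2 and 252 with only these 4 libraries fitted. The tested list genes were adult globin, heme and maturation genes, and the other lists had none past the filter. At an unadjusted p below 0.05 the list counts were 7, 0 and 5, beside 1474, 638 and 1071 of all 4504 genes. Of the globins only Hbb-bs passed the filter on low values, through the virgin pair. It stood at 7.72 and 72.6 CPM in virgin, 0 in both gd6.5 libraries and 0 and 154 in gd8.5 (adjusted p of edgeR 0.140, 0.866 and 0.171 for the 3 comparisons in the order above). DESeq2 called 1, 0 and 1 list genes, each time Hbb-bs, lower at gd6.5 than in virgin and higher in gd8.5 than in gd6.5 libraries. Since Hbb-bs was tested only through the group where it is high, and the gd8.5 level rests on replicate 2, these calls are no support for a difference between stages. With no filter, edgeR called 6 of 55 list genes and 919 genes in all for gd6.5 against virgin. The 6 were the 4 adult globin genes, Hbb-y and Hba-x, all lower at gd6.5. For gd8.5 against virgin it called 2 of 55 (Hba-a1 and Hbb-bt, higher) and 502 in all. For gd8.5 against gd6.5 it called 4 of 55 (the adult globin genes, higher) and 452 in all. Since globin stood mainly in virgin replicate 2 and gd8.5 replicate 2, these calls are no support for a difference between stages either.

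The other tested list genes were not particular to red cells: Tfrc, for example, stood at a level of 130 in the single NK-marker cells under 1% globin. Between the subsets, 0.32% of 4683 genes and 0 of 13 list genes were called for trNK-D against trNK-V, 21.2% and 3 of 13 for trNK-T against trNK-V, and 1.75% and 0 of 13 for trNK-T against trNK-D, with 5, 8 and 2 at an unadjusted p below 0.05, beside 939, 2255 and 1072 of all 4683 genes. The calls over all genes moved with the libraries: the 15 for trNK-D against trNK-V became 0 without trNK-V replicate 1, 4 without trNK-V replicate 2 and 1 without trNK-D replicate 2, and the 82 for trNK-T against trNK-D became 25, 18 and 38 without trNK-D replicate 1, trNK-D replicate 2 and trNK-T replicate 1 and 0 without trNK-T replicate 2. Tfrc stood at 20.9 and 19.4 CPM in trNK-V, 45.7 and 48.1 in trNK-D and 61.9 and 97.9 in trNK-T (log2 fold change 1.99 ± 0.29 SE for trNK-T against trNK-V, adjusted p = 0.00541 by edgeR). Ppox, protoporphyrinogen oxidase, fell from 87.1 and 71.9 to 31.3 and 37.3 (-1.21 ± 0.23, adjusted p = 0.0118 by edgeR), a call that was lost without trNK-V replicate 1, trNK-T replicate 1 or trNK-T replicate 2. Adult globin was at most 0.997 CPM in these 6 libraries, with 0 to 8 counts in the trNK-T pair.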

How the data were processed

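The single-cell tables hold raw counts of UMIs, as the authors deposited them after BD Rhapsody processing on GRCm39. The 2 tables were joined by cell number (0 genes shared) into 35237 genes and 83499186 UMIs. For bulk libraries, the authors deposited raw counts per gene on mm10. HISAT2 2.1.0 is given in the submitters' processing notes. Bulk genes were tested where some group had over 10 RPKM in each of its libraries, using edgeR 4.0.16 (TMM, quasi-likelihood test, all 6 libraries of an experiment in 1 fit) in R 4.3.3, tested on simulated data first. DESeq2 1.42.0 was an alternative. RPKM were computed from the gene lengths beside the counts, and 54353 gene IDs shared by all files were used. Bulk replicates carry no note of separate mice, so p-values measure the spread between these libraries. Cells were handled in Python 3.11.15, with intervals from exact Poisson and binomial limits and counts of 0 set at 3. The thinning used 1 random draw. Named genes were the listed genes, the 20 highest levels and 20 largest ratios, and the 10 smallest ratios among genes with at least 50 UMIs expected, of which the text gives the leading ones. The members, lists and tests were chosen with earlier results of these data known. Promoter sequences are from RefSeq (GRCm38.p6), while transcript likeness used GENCODE transcripts.
ATAC-seq libraries were not used here. A few list genes that count in the totals are not reported here by name, in text or figures.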

Additional observations from a re-analysis of the deposited data

Results flagged for a closer look

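Libraries of cultured trNK cells are outside the comparisons above, and 7 of them held more adult globin counts than any control library of their experiment and more than 3 counts. After 3 days of culture, the control libraries reached at most 0.267 CPM (counts per 1000000), whereas the libraries with 20 ng/mL IL-21 held 0.656 (8 counts) and 1.33 (18 counts), and replicate 1 with IL-21 and the STAT3 inhibitor Stattic held 3.01 (89 counts), beside 19 counts of the Y-linked list. Replicate 2 with IL-21 and Stattic held 0.0522 (1 count), below the control maximum. The macrophage list moved in the same cultures, at 41.9 and 31.0 CPM in controls, 333 and 903 with IL-21, and 4623 and 4713 with IL-21 and Stattic, and its part in the globin counts was not tested. That list includes Hmox1, which had UMIs in 296 of the 6536 single NK-marker cells, so its sum is not particular to macrophages. In the time course, the 8 libraries without IL-21 had 0 globin counts. With IL-21, the libraries labelled 0 h held 0.469 (24 counts) and 1.27 (54 counts), 24 h replicate 1 held 1.04 (38 counts) and 72 h replicate 1 held 0.738 (27 counts). The other IL-21 libraries held 0 (both at 6 h), 2 (24 h replicate 2) and 1 (72 h replicate 2) counts. The macrophage list stood at 0 CPM in both IL-21 libraries at 0 h and at 0.0350 to 22.6 CPM in the other 6 with IL-21, against 0 to 1.65 CPM without. The difference between libraries with and without IL-21 was not tested, and all of these levels are below the 655 CPM of gd8.5 replicate 2.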

How the results depend on the processing

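The number of globin-high cells moved most with the beta genes alone at 30% (46 cells) and with under 3 NK-list UMIs (41), beside 50 without the NK and macrophage sets, an alternative added after seeing the data. It lay between 59 and 97 under the other 5 alternatives. The erythroid share of non-globin UMIs (10.8%) became 7.41% at a globin share of 10%, 15.6% at 50%, 15.2% at 200 to 2500 UMIs per cell, 18.7% with the beta genes alone, 14.4% with under 3 NK UMIs and 18.9% without the NK and macrophage sets. The NK share (1.11%) became 0.634% at 50%, 0.712% at 200 to 2500 UMIs, 0.464% with the beta genes alone, 0.166% with under 3 NK UMIs and 0.404% without both sets. The embryonic share of globin stayed within its interval in 8 of 8 alternatives. In bulk, list genes called for gd6.5 against virgin numbered 1 with DESeq2 (Hbb-bs), 6 with no filter and 0 to 4 when a library was left out (4 without virgin replicate 2: Tfrc and Hemgn higher, Isg20 and Bnip3l lower). For gd8.5 against virgin they numbered 2 with no filter and 0 to 1 when a library was left out (Tfrc, without virgin replicate 2). For gd8.5 against gd6.5 they numbered 1 with DESeq2 (Hbb-bs) and 4 with no filter, for trNK-D against trNK-V 1 with DESeq2 and 1 with no filter (Tfrc in both), and for trNK-T against trNK-V 1 to 3 when a library was left out (only Tfrc without trNK-T replicate 2; Tfrc was called in all 4 such fits). Calls over all genes moved more: for gd6.5 against virgin (278) they were 462 with DESeq2, 919 with no filter, 5 with filterByExpr, 0 with only the 2 groups compared, 2 with the replicate block and 0 to 907 when a library was left out. For gd8.5 against gd6.5 (0) they were 221 with DESeq2, 252 with only the 2 groups compared and 452 with no filter. For gd8.5 against virgin (19) they were 164 with DESeq2, 502 with no filter, 5 with filterByExpr, 0 with the replicate block and 0 to 597 when a library was left out, and for trNK-T against trNK-V (991) 2022 with no filter and 365 to 954 when a library was left out. For trNK-D against trNK-V (15) they were 187 with DESeq2, 471 with no filter, 1 with filterByExpr, 6 with only the 2 groups compared, 25 with the replicate block and 0 to 18 when a library was left out. For trNK-T against trNK-D (82) they were 326, 587, 11, 31, 151 and 0 to 38 in the same order. The replicate block called 0 list genes in 5 comparisons and 3 in trNK-T against trNK-V, as without it. Whether the replicate numbers pair the libraries is not settled. Deviations of same-numbered libraries correlated at -0.308 to 0.110 between stages and at -0.00850 to 0.387 between subsets, highest for trNK-D with trNK-T. The cause of these shifts was not tested. Read as 3 counts, depth limits single genes to a level of 35.9 UMIs per 1000000 in the 82 cells.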
